A study of Homo sapiens with 15 samples.

Results

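The FOS and JUN proteins are the subunits of activator protein 1 (AP-1), and their 7 genes, FOS, FOSB, FOSL1, FOSL2, JUN, JUNB and JUND, were followed over 5 groups of 3 Affymetrix arrays of A549 cells. All probe sets whose annotated symbol was 1 of these genes were taken, which gave 17 of the 54675 probe sets on the array. FOS, FOSB, FOSL1 and JUNB had 1 probe set each, FOSL2 had 5, and JUN and JUND had 4 each. The FOSB probe set did not pass the filter on low signals, so 16 were tested.

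A549 is an established line of human lung adenocarcinoma epithelial cells. The culture medium of every group was F12K, and its serum had been treated with charcoal, which removes steroids. The groups were the match polyamide with dexamethasone, the mismatch polyamide with dexamethasone, mifepristone with dexamethasone, dexamethasone alone, and non-treated cells. Per the labels, dexamethasone was given for 6 hours and each of the other compounds for 48 hours. Dexamethasone is a synthetic glucocorticoid, mifepristone an antagonist of the glucocorticoid and progesterone receptors, and polyamides are synthetic molecules that bind in the minor groove of DNA at chosen sequences. By the title, one polyamide was made for glucocorticoid response elements, the sites at which the activated receptor sits on DNA. The sources used here give no doses. The comparisons with dexamethasone therefore show each compound on top of dexamethasone, since every array with a compound also had dexamethasone and no array had a compound alone. The labels do not say whether the 3 arrays of a group came from separate cultures, so p-values measure no more than the spread among these arrays, and that spread may be technical.

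AP-1 binds DNA as a dimer held together by a leucine zipper. FOS proteins need a JUN partner, whereas JUN proteins also pair with each other and with proteins of the ATF and MAF families. Several of these genes are immediate early genes, which growth factors and stress switch on within minutes through MAP kinases, and their mRNAs and proteins are short-lived. The glucocorticoid receptor is known to interfere with AP-1 at inflammatory genes, and it raises phosphatases and decay factors that restrain the same pathway.

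The printed signals are quantile-normalized MAS5 signals, in arbitrary units of brightness, given array by array for the members and as means of 3 arrays for other genes. Changes are differences of log2(signal + 16) with their standard error (SE), and folds are on that scale, which understates the change of genes with low signals. A probe set was called at an adjusted p under 0.05 by limma with Benjamini-Hochberg adjustment over the 39744 probe sets tested. As deposited, the 2% trimmed means of the arrays ran from 119 to 146 with mifepristone, 91.3 to 137 with mismatch and 89.8 to 107 with match. They ran from 91.4 to 107 with dexamethasone alone and from 86.8 to 101 in non-treated cells. These differences are why the arrays were normalized. The treatments showed on FKBP5, a gene that the glucocorticoid receptor induces, which was 3.48 higher on the log2 scale with dexamethasone than in non-treated cells (SE 0.07) and 2.20 lower with mifepristone than with dexamethasone alone (log2 change -2.20). The match polyamide lowered FKBP5 by more than the mismatch polyamide did (difference -1.43, SE 0.07, adjusted p = 8.74e-11). TSC22D3, another induced gene, was 3.01 higher with dexamethasone and then changed by -2.46 with mifepristone, -0.70 with match and -0.39 with mismatch. Its difference between match and mismatch was -0.31 (adjusted p = 0.0269), called in 18 of 26 alternative settings. NR3C1, the gene of the receptor itself, averaged 616 with match, 866 with mismatch and 1384 with mifepristone, against 1047 with dexamethasone and 1324 in non-treated cells. Dexamethasone thus lowered it (-0.34, adjusted p = 0.00910), and it was higher with mifepristone than with dexamethasone (0.40, adjusted p = 0.00283). The mismatch change of NR3C1 (-0.26, adjusted p = 0.0153) was called in 19 of 26 alternative settings. Of the 6 epithelial markers checked, CLDN4 alone was low, at 2.21 to 21.4. The summed signal of 4 fibroblast markers, of which COL1A1 held most, was 242 to 274 with the match polyamide and 168 to 197 with the mismatch polyamide, against 127 to 167 with mifepristone, 115 to 139 with dexamethasone and 146 to 151 in non-treated cells. The summed signal of 4 markers of alveolar type II cells was 131 to 161 with match and 130 to 138 with mismatch, against 91.5 to 103 with mifepristone, 95.8 to 127 with dexamethasone and 119 to 141 in non-treated cells. The summed signal of the 6 epithelial markers was 14348 to 15668 with match and 16409 to 17061 with mismatch, against 15202 to 15871 with mifepristone, 17660 to 17691 with dexamethasone and 15531 to 15998 in non-treated cells. Over all arrays the summed markers of leukocytes ran from 30.3 to 66.8 and of endothelium from 36.1 to 74.9, with overlapping ranges in the 5 groups. The part of these marker shifts in the results was not tested. In bulk RNA, fewer cells of a type and less RNA per cell cannot be told apart.

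The stretches just upstream of the transcription start are shown because 4 of those that follow carry a motif marked here and that of JUNB carries none of them. The stretch of FOSB, which also carries TGACGT, is not shown. Each stretch shown is the 120 bases before the start in RefSeq for GRCh38.p14, written 5′ to 3′ on the gene's own strand. Capitals mark TGACGT, the core of the site bound by CREB and ATF proteins, on either strand, and in JUN the TGACATCA element through which AP-1 is known to act on the JUN gene itself.
FOS, chr14:75278708-75278827, plus strand: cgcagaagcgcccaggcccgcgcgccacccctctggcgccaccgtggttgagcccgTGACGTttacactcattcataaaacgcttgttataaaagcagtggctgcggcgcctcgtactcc
FOSL2, chr2:28392738-28392857, plus strand: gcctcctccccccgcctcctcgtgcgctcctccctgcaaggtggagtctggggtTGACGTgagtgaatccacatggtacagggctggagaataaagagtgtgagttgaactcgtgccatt
JUN, chr1:58784048-58784167, minus strand: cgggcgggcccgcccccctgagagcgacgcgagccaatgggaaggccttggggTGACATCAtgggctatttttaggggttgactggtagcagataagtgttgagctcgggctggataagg
JUNB, chr19:12791366-12791485, plus strand: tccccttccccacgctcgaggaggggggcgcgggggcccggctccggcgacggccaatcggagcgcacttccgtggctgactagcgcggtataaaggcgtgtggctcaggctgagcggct
JUND, chr19:18281623-18281742, minus strand: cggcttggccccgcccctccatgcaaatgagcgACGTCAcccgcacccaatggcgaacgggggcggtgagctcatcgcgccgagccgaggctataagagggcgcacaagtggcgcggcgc

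RefSeq promoters, from 250 bases before to 50 after the start, were found for 6 of the 7 genes, not for FOSL1. On that build FOS spans chr14:75278828-75282230, FOSB chr19:45467996-45475179, FOSL1 chr11:65892049-65900545, FOSL2 chr2:28392858-28417317, JUN chr1:58780791-58784047, JUNB chr19:12791486-12793315 and JUND chr19:18279694-18281622. TGACGT, searched on both strands, stood in 4 of these 6, against 7.98% of all 35116 promoters of the same length. Its first base lay at -64 in FOS, -60 in FOSB and -66 in FOSL2 counted from the start, and at -200, -198 and -87 in JUND, where the first and second overlap within the palindrome TGACGTCA. That full palindrome stood in 1.85% of all promoters. The JUN element TGACATCA lay at -67 and stood in 2.61% of promoters. The consensus AP-1 site TGACTCA was found in FOSL2 alone, at +5, against 4.95% of promoters. A TATAAA box stood at -33 in FOS, -30 in FOSB and -31 in JUNB (11.5% of promoters). The CCAAT box, searched on both strands, stood in JUN, JUNB and JUND (34.6% of promoters), in each on the gene's own strand. AGAACA, one arm of the glucocorticoid response element, was found in FOSB alone, at -142, and in 14.8% of promoters. These matches describe letters in a window and say nothing of binding.

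With dexamethasone the family split by gene. FOS, FOSL2 and JUNB were higher than in non-treated cells, and FOSL1, JUN and JUND were lower. Of the 16 probe sets tested, 6 were higher, 6 were lower and 4 did not pass, which is 75% called against 4.85% of all probe sets tested (2.56% higher and 2.29% lower). The median change of the 16 probe sets, 5 of them of FOSL2, was 0.49, against -0.01 over all probe sets. It does not describe the genes, since by 1 probe set per gene 3 of 6 were higher and 3 lower, against 6.79% of all genes called. Mifepristone moved 8 of the 16 relative to dexamethasone, 2 up and 6 down, against 3.55% of all probe sets (1.61% up and 1.94% down). FOS, 4 of the 5 FOSL2 probe sets and JUNB were lower with it than with dexamethasone alone. FOSL1 and 1 of the 4 JUND probe sets were higher. These comparisons share the dexamethasone arrays, as do those of the polyamides with dexamethasone.

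The match polyamide raised FOSL1 and 3 of the 5 FOSL2, 2 of the 4 JUN and 3 of the 4 JUND probe sets above dexamethasone, and FOS and JUNB did not pass the test. In all, 9 of 16 probe sets were higher, none lower and 7 not past the test. Both polyamides moved much of the array, so this stands against 30.8% of all probe sets called, 15.9% higher and 14.9% lower. The mismatch polyamide raised 5 and lowered 4 of the 16, against 22.9% of all probe sets called, 12% higher and 10.9% lower. The median change of the 16 probe sets was -0.02. Without the third array of the mismatch group 5 of the 16 were called. Set directly against each other, match was higher than mismatch for 8 of 16 probe sets, lower for none and not past the test for 8, while 16.9% of all probe sets were called, 7.47% higher and 9.38% lower in match. The median difference of the 16 probe sets was 0.47, against 0.01 over all probe sets. By 1 probe set per gene, 5 of 6 genes were higher in match and none lower, against 22.9% of all genes called.

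**Figure D1:**
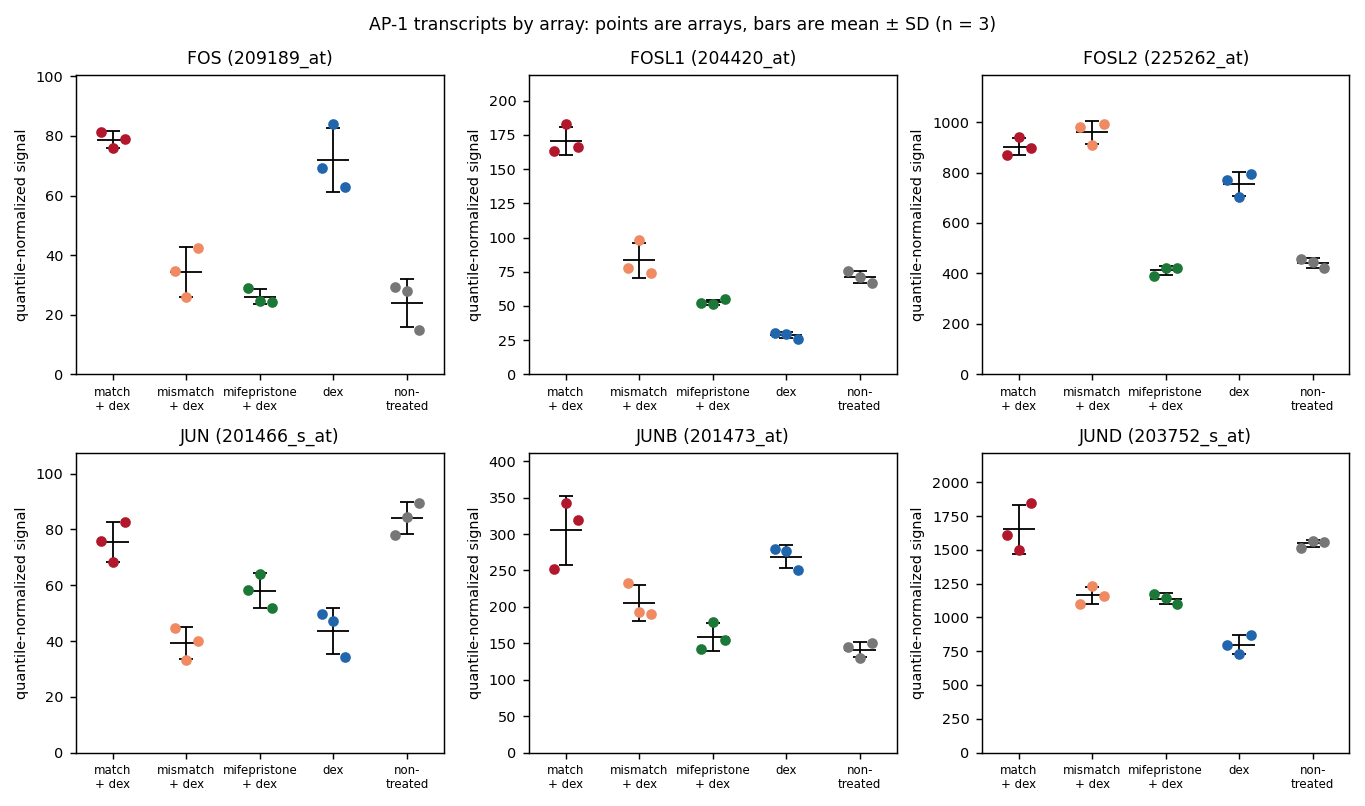
Quantile-normalized signal (arbitrary units, linear scale from 0) of 1 probe set each for FOS, FOSL1, FOSL2, JUN, JUNB and JUND, in the match, mismatch, mifepristone, dexamethasone and non-treated groups from left to right. Points are arrays and bars the mean ± SD of 3 arrays; FOS and JUNB were high with match and with dexamethasone alone, FOSL1 was highest with match (163 to 183) and lowest with dexamethasone (26.0 to 30.1), and FOSL2 was high in every group with dexamethasone except the mifepristone group.

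FOS, the founding member of the family and a gene with a short-lived mRNA, had signals of 81.4, 75.9 and 79.0 with the match polyamide, 34.8, 25.9 and 42.5 with the mismatch polyamide and 28.9, 24.8 and 24.3 with mifepristone, against 69.3, 83.8 and 62.9 with dexamethasone and 29.3, 28.1 and 14.8 in non-treated cells. All arrays of the match and dexamethasone groups lay above all arrays of the other 3 groups, and those 3 groups overlapped. Dexamethasone raised FOS by 1.15 on the log2 scale, 2.22-fold (SE 0.17, adjusted p = 0.000138). Mifepristone lowered it relative to dexamethasone by -1.06 (SE 0.17, adjusted p = 0.000491), or -0.67 with scaling on the spike-in controls. The mismatch polyamide lowered it too, by -0.81 (SE 0.17, adjusted p = 0.00143). With the match polyamide the difference from dexamethasone was 0.11 with a 95% interval of -0.25 to 0.47, which did not pass the test. The non-treated FOS signals lay close to the level below which probe sets were filtered out.

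FOSB, which also has a truncated protein form known from brain, was barely measured. Its signals were 3.21, 27.9 and 5.85 with the match polyamide, 3.27, 13.2 and 2.19 with the mismatch polyamide and 3.60, 5.13 and 1.46 with mifepristone, against 1.78, 2.99 and 2.89 with dexamethasone and 2.26, 7.06 and 1.88 in non-treated cells. Replicate 2 was the highest in all 5 groups and by itself carried the match and mismatch means, so no difference between groups was read from FOSB.

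FOSL1 encodes FRA-1, which lacks the C-terminal activation domain of FOS and is known for its link to invasion of carcinoma cells. It had signals of 163, 183 and 166 with the match polyamide, 77.8, 97.9 and 74.4 with the mismatch polyamide and 51.9, 51.6 and 54.7 with mifepristone, against 30.1, 29.3 and 26.0 with dexamethasone and 75.4, 71.3 and 66.6 in non-treated cells. The dexamethasone arrays were below all others and the match arrays above all others. Dexamethasone lowered FOSL1 by -0.97, 1.96-fold (SE 0.12, adjusted p = 2.17e-05), and mifepristone raised it by 0.63 relative to dexamethasone (SE 0.12, adjusted p = 0.00381). That value was 0.99 on the deposited signals without further scaling (called unscaled signals from here on) and 1.06 with spike-in scaling. With the match polyamide FOSL1 was 4.19-fold above dexamethasone (log2 change 2.07, SE 0.12, adjusted p = 7.41e-11), the largest change of any member in these 5 comparisons. The mismatch polyamide raised it 2.22-fold (1.15, SE 0.12, adjusted p = 7.94e-07), and match exceeded mismatch by 0.91 (SE 0.12, adjusted p = 2.72e-05).

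FOSL2, which encodes FRA-2, was the member with the most probe sets and with bright signals. Its brightest, 225262_at, gave 871, 940 and 899 with the match polyamide, 980, 909 and 991 with the mismatch polyamide and 391, 422 and 421 with mifepristone, against 769, 703 and 794 with dexamethasone and 457, 447 and 420 in non-treated cells. Both polyamide groups were above the dexamethasone group, and mifepristone and non-treated arrays overlapped at the bottom. Dexamethasone raised this probe set 1.69-fold (0.75, SE 0.07, adjusted p = 2.16e-07). Probe sets 218880_at (0.82), 218881_s_at (1.18) and 228188_at (0.93) rose as well. The fifth, 205409_at, changed by 0.60 without overlap of the arrays and did not pass (adjusted p = 0.0760), although it did without the third non-treated array (adjusted p = 0.0262).

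Relative to dexamethasone, mifepristone lowered 4 of the 5 FOSL2 probe sets, by -0.85 (SE 0.07, adjusted p = 6.23e-08) at 225262_at, -0.90 at 218880_at, -1.16 at 218881_s_at and -0.88 at 228188_at. The size of these changes depended on how the arrays were scaled. On the signals as deposited the median of all probe sets was 0.35 higher with mifepristone than with dexamethasone, and with spike-in scaling it was 0.42 higher. FOSL2 at 225262_at then changed by -0.40 (adjusted p = 0.0664) and -0.30 (adjusted p = 0.131), that is, lower than the median probe set by more, but not past the test. Probe sets 218880_at and 228188_at lost their calls in the same way, with adjusted p from 0.0627 to 0.140, and 218881_s_at kept its call.

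Each polyamide raised 3 of the 5 FOSL2 probe sets further above dexamethasone, by a small amount at the brightest. At 225262_at the change was 0.25 with match (SE 0.07, adjusted p = 0.00716) and 0.34 with mismatch (SE 0.07, adjusted p = 0.00100). The match value was not past the test on unscaled signals (adjusted p = 0.218), with median centring (0.09, adjusted p = 0.493) or without the second dexamethasone array (adjusted p = 0.0512), and the mismatch value was 0.56 on unscaled signals. Match also raised 205409_at (0.90) and 218880_at (0.61), and mismatch raised 218880_at (0.38, adjusted p = 0.0192) and 228188_at (0.27, adjusted p = 0.0270). Those 2 mismatch calls were lost with spike-in scaling, that of 228188_at with median centring too, and without single arrays (for 218880_at the second dexamethasone or mismatch array, for 228188_at any of 5 of the 6 arrays compared). Match at 228188_at (0.18, adjusted p = 0.130) and mismatch at 205409_at (0.47, adjusted p = 0.0749) did not pass. Probe set 218881_s_at lay on the other side of dexamethasone, at -0.10 with match (adjusted p = 0.796) and at -0.32 with mismatch (adjusted p = 0.373, without overlap of the arrays), neither past the test. FOSL2 was the member for which no probe set differed between match and mismatch, with a difference of -0.09 and a 95% interval of -0.23 to 0.06 at 225262_at and of -0.27 to 0.09 at 228188_at. With median centring, however, 225262_at was lower in match by 0.27 (log2 difference -0.27, adjusted p = 0.0358).

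JUN encodes c-Jun, the subunit whose activity the JNK kinases raise by phosphorylation. Probe set 201466_s_at gave signals of 75.9, 68.2 and 82.5 with the match polyamide, 44.7, 33.2 and 40.1 with the mismatch polyamide and 58.2, 64.2 and 51.7 with mifepristone, against 49.7, 47.1 and 34.3 with dexamethasone and 78.0, 84.6 and 89.6 in non-treated cells. The match and non-treated arrays were the high ones, and the mismatch and dexamethasone arrays overlapped at the low end. The brighter 201464_x_at, a type of probe set in which some probes can bind other transcripts, gave 223, 214 and 211 with match, 99.6, 90.8 and 85.2 with mismatch and 149, 142 and 150 with mifepristone, against 118, 112 and 139 with dexamethasone and 196, 193 and 188 in non-treated cells. Here the match arrays were above and the mismatch arrays below all others.

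Dexamethasone lowered JUN by -0.75 at 201466_s_at (SE 0.14, adjusted p = 0.00190) and by -0.59 at 201464_x_at (SE 0.10, adjusted p = 0.000590), and neither passed on unscaled signals (adjusted p = 0.0546 and 0.123). With mifepristone the arrays lay above those of dexamethasone without overlap, but the changes of 0.32 and 0.23 did not pass (adjusted p = 0.353 and 0.310). Both passed on unscaled signals (0.69 and 0.66) and with spike-in scaling (0.77 and 0.75), under which all probe sets shifted upward. The match polyamide raised JUN at both probe sets, by 0.62 (SE 0.14, adjusted p = 0.00185) and 0.74 (SE 0.10, adjusted p = 5.74e-06). The mismatch polyamide did not, with -0.11 at 201466_s_at (95% interval -0.40 to 0.19) and a decrease of -0.36 at 201464_x_at (adjusted p = 0.0107) that was lost on unscaled signals, with spike-in scaling and without the third dexamethasone or the third mismatch array. Match exceeded mismatch by 1.11 at 201464_x_at (SE 0.10, adjusted p = 1.82e-07), the largest difference between the polyamides among the members, and by 0.73 at 201466_s_at (SE 0.14, adjusted p = 0.00110; 0.0556 on unscaled signals).

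The other JUN probe sets were dim. Probe set 213281_at stayed between 9.17 and 28.7 on all arrays and was not called in any of these comparisons. Probe set 201465_s_at stayed between 3.31 and 27.6. It was called once, lower with mismatch than with dexamethasone (-0.81, adjusted p = 0.0401), and that call failed in 11 of the 25 alternative settings that tested it, the replicate block among them (adjusted p = 0.0534).

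JUNB, a weaker activator than JUN on many promoters and known to hold JUN activity in check, had its high arrays in the same groups as FOS. Its signals were 252, 343 and 320 with the match polyamide, 233, 193 and 190 with the mismatch polyamide and 142, 179 and 155 with mifepristone, against 279, 277 and 251 with dexamethasone and 144, 130 and 150 in non-treated cells. Match and dexamethasone arrays overlapped at the top, mismatch arrays lay between, and mifepristone and non-treated arrays overlapped at the bottom. Dexamethasone raised JUNB 1.81-fold (0.86, SE 0.12, adjusted p = 5.30e-05). Mifepristone lowered it by -0.71 (SE 0.12, adjusted p = 0.000668), a call lost on unscaled signals (-0.26, adjusted p = 0.281) and with spike-in scaling (-0.16, adjusted p = 0.451). The mismatch polyamide lowered it by -0.37 (SE 0.12, adjusted p = 0.0284), and this was lost under both of those scalings and without dexamethasone array 1 or 2 or mismatch array 2 or 3. With match the difference from dexamethasone was 0.16 with a 95% interval of -0.08 to 0.41. Match exceeded mismatch by 0.53 (SE 0.12, adjusted p = 0.00313; 0.193 on unscaled signals).

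JUND, the member that many cells express without stimulation, was bright on this array. Probe set 203752_s_at gave 1608, 1497 and 1848 with the match polyamide, 1102, 1230 and 1155 with the mismatch polyamide and 1177, 1142 and 1099 with mifepristone, against 797, 728 and 869 with dexamethasone and 1516, 1565 and 1562 in non-treated cells. The groups fell into 3 levels, with match and non-treated arrays overlapping at the top, mismatch and mifepristone overlapping in the middle and dexamethasone alone at the bottom. Dexamethasone lowered it 1.92-fold (-0.94, SE 0.08, adjusted p = 2.61e-08). Probe sets 203751_x_at (-0.70, adjusted p = 0.0107) and 214326_x_at (-0.62, adjusted p = 0.0273) fell too, but their calls failed on unscaled signals and without non-treated array 1 or 3, and for 214326_x_at also with spike-in scaling and without dexamethasone array 3.

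Relative to dexamethasone, JUND at 203752_s_at was higher by 0.51 with mifepristone (SE 0.08, adjusted p = 0.000190; 0.95 on unscaled signals), by 1.03 with match (SE 0.08, adjusted p = 1.24e-09) and by 0.54 with mismatch (SE 0.08, adjusted p = 2.10e-05). Match also raised 203751_x_at (0.89) and 214326_x_at (0.80), and mismatch moved neither past the test. Nor did mifepristone, with 0.39 at 203751_x_at (adjusted p = 0.275) and 0.15 at 214326_x_at (adjusted p = 0.808). Its change at 203751_x_at passed on unscaled signals (0.78) and with spike-in scaling (0.86), and that at 214326_x_at with spike-in scaling (0.61). Match exceeded mismatch at all 3 of these probe sets, by 0.50 at 203752_s_at (SE 0.08, adjusted p = 8.99e-05), 0.83 at 203751_x_at and 0.56 at 214326_x_at (adjusted p = 0.0197). On the signals as deposited 203752_s_at differed by 0.33 (adjusted p = 0.248) and 214326_x_at by 0.44 (adjusted p = 0.247). The call of 214326_x_at was also lost with median centring and without match array 1 or 3 or mismatch array 2. The fourth JUND probe set, 229117_s_at, lay between 1.10 and 23.5, ran opposite to the others and was called in none of the comparisons. Its closest was match against dexamethasone (-0.65, adjusted p = 0.0571), which passed without mifepristone array 1 (adjusted p = 0.0367) or 2 (adjusted p = 0.0423).

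**Figure D2:**
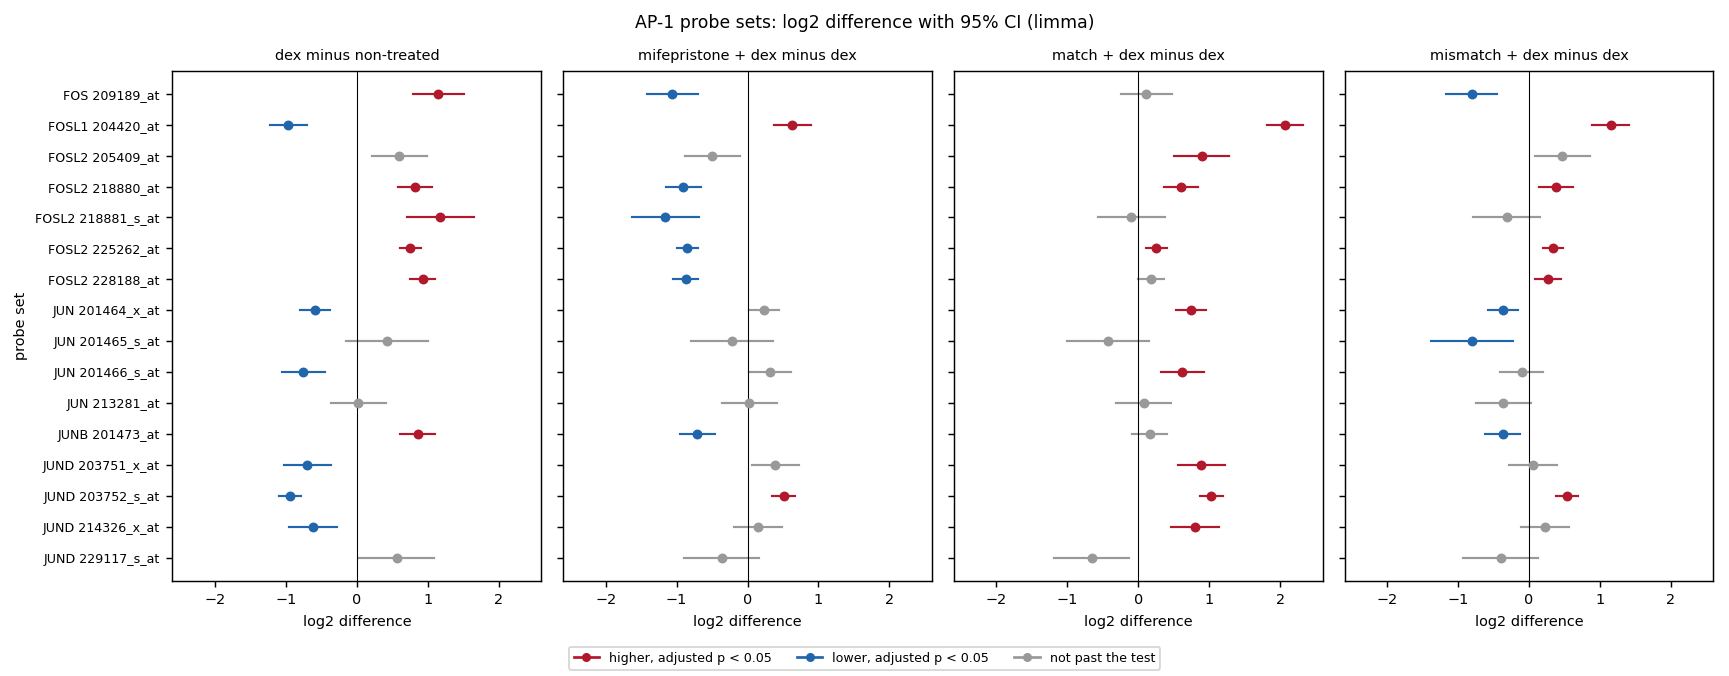
Differences of log2(signal + 16) for the 16 tested probe sets, each with its 95% confidence interval, in dexamethasone against non-treated cells and in mifepristone, match and mismatch, each with dexamethasone, against dexamethasone alone. Red marks probe sets called higher, blue called lower and grey not past the test; FOS, FOSL2 and JUNB lie right of 0 with dexamethasone and left of 0 with mifepristone, and FOSL1 reaches 2.07 with match.

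Ordered by mean level, not every step between neighbouring groups passed the test. Adjusted p depends on the comparison, so steps of similar size could pass in some comparisons and not in others. For FOS the order was match, dexamethasone, mismatch, mifepristone and non-treated, and only the step between dexamethasone and mismatch passed the test. For FOSL1 it was match, mismatch, non-treated, mifepristone and dexamethasone, with steps past the test between match and mismatch and between mifepristone and dexamethasone. At FOSL2 225262_at the mismatch group was nominally highest, then match, dexamethasone, non-treated and mifepristone, and dexamethasone differed from both neighbours. For JUN 201466_s_at the order was non-treated, match, mifepristone, dexamethasone and mismatch, and no step between neighbours passed. JUNB ran from match through dexamethasone, mismatch and mifepristone to non-treated, with steps past the test on both sides of mismatch (adjusted p = 0.0416 for the step to mifepristone, which several scalings and left-out arrays lost). At JUND 203752_s_at the steps between match and non-treated and between mismatch and mifepristone did not pass, and the other steps did.

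Against non-treated cells, mifepristone with dexamethasone had 1 called difference in the family. Adjustment was made per comparison, and only 66 of the 39744 probe sets were called in this one. A difference of a given size therefore passed less easily here, and not passing does not show equal levels. At JUN 201464_x_at, for example, a decrease of 0.36 did not pass here but did in mismatch against dexamethasone (adjusted p = 0.0107). Only JUND 203752_s_at was called, lower by 0.44 (log2 change -0.44, SE 0.08, adjusted p = 0.0106), which makes 1 of 16 probe sets against 0.166% of all, 0.0453% lower and 0.121% higher. That call failed under most scalings and without array 2 or 3 of the non-treated or mifepristone group, and the change was 0.01 on unscaled signals. FOSL1 (-0.34, adjusted p = 0.595) and JUN 201466_s_at (-0.44, adjusted p = 0.489) lay below non-treated cells without overlap of the arrays but did not pass. The same held for JUN 201464_x_at, lower by 0.36 (adjusted p = 0.322). It also held for JUND 214326_x_at, at 57.5 to 65.8 with mifepristone against 78.7 to 106 in non-treated cells. JUNB, at 0.15, passed as higher only on unscaled signals (0.60) and with spike-in scaling (0.59), and FOSL2 228188_at, at 0.05, only on unscaled signals (0.51).

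With the match polyamide 8 of 16 probe sets were higher than in non-treated cells and none lower, against 29.9% of all probe sets called, 15.1% higher and 14.8% lower. These were FOS (1.26, adjusted p = 7.45e-06), FOSL1 (1.10, adjusted p = 6.99e-07), all 5 of FOSL2 (1.01 to 1.49) and JUNB (1.02, adjusted p = 9.37e-07). JUN 201466_s_at differed by -0.13 (95% interval -0.43 to 0.17) and JUND 203752_s_at by 0.09 (-0.07 to 0.24), neither past the test. With the mismatch polyamide 6 were higher and 4 lower than in non-treated cells, against 21% of all probe sets called, 10.3% higher and 10.6% lower. The higher ones were all 5 of FOSL2 (0.86 to 1.21) and JUNB (0.49, adjusted p = 0.00447), and the lower ones were JUN 201464_x_at (-0.95) and 201466_s_at (-0.86) and JUND 203751_x_at (-0.64) and 203752_s_at (-0.41). Both JUND calls were lost on unscaled signals, and the calls of JUND 203752_s_at and JUNB with spike-in scaling. JUND 214326_x_at (-0.39, adjusted p = 0.102) passed without mismatch array 3 (adjusted p = 0.0312). FOS (0.34, adjusted p = 0.190) and FOSL1 (0.18, adjusted p = 0.354) did not pass.

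Set against mifepristone, with dexamethasone in both groups, match was higher at 12 of 16 probe sets and lower at none, against 31% of all probe sets called, 15.8% higher and 15.2% lower. FOSL1 differed by 1.44 (SE 0.12, adjusted p = 1.55e-08) and FOS by 1.18 (SE 0.17, adjusted p = 1.70e-05), whereas the 1 JUN and 3 JUND calls were lost on unscaled signals and with spike-in scaling, and that of JUNB (0.87) on unscaled signals (adjusted p = 0.0592). JUND 203751_x_at also failed without mifepristone array 1 or 2 or match array 3. Mismatch was higher than mifepristone at 7 and lower at 2, against 22.6% of all probe sets called, 11.5% higher and 11% lower. The lower ones were JUN 201464_x_at (-0.60, adjusted p = 0.000142) and 201466_s_at (-0.42, adjusted p = 0.0383), while FOSL2 225262_at was higher by 1.19 (SE 0.07, adjusted p = 1.28e-10). FOSL1 was higher by 0.53 (adjusted p = 0.00358) but not past the test on unscaled signals (adjusted p = 0.398) or with spike-in scaling. JUNB was higher by 0.34 (adjusted p = 0.0416), turned to -0.12 with spike-in scaling, and failed in 11 further settings. FOSL2 218881_s_at (0.84) failed on unscaled signals (adjusted p = 0.0758), with spike-in scaling (0.48, not past the test) and without mifepristone array 1. JUN 201466_s_at failed without a filter on low values (adjusted p = 0.0551), with the 2 groups fitted alone (adjusted p = 0.0701) and without mifepristone array 1 or 2 or mismatch array 2 or 3.

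**Figure D3:**
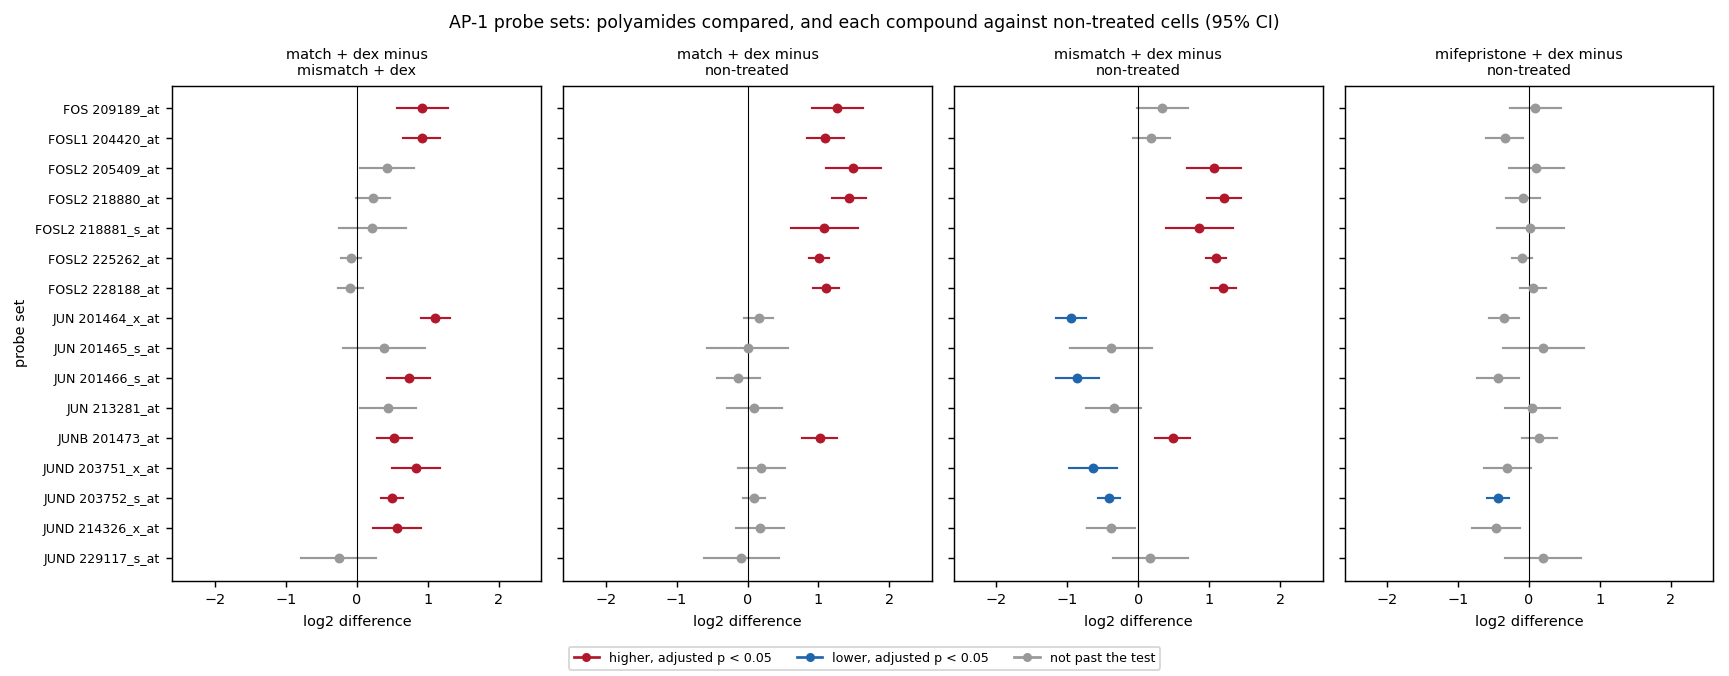
Differences of log2(signal + 16) with 95% confidence intervals for the 16 tested probe sets in match against mismatch polyamide, and in match, mismatch and mifepristone (each with dexamethasone) against non-treated cells. Red is called higher, blue called lower and grey not past the test; 8 probe sets lie higher in match than in mismatch, and 1 probe set, of JUND, is called with mifepristone against non-treated cells.

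Probe sets of a gene mostly moved together where they were bright. Over the 15 arrays, pairs of FOSL2 probe sets correlated at r = 0.731 to 0.974, 201464_x_at and 201466_s_at of JUN at 0.860, and the 3 JUND probe sets 203751_x_at, 203752_s_at and 214326_x_at at 0.768 to 0.806. The dim JUND 229117_s_at correlated with these at -0.612 to -0.438. Of the dim JUN probe sets, 213281_at correlated with 201464_x_at and 201466_s_at at 0.545 and 0.529, and 201465_s_at at 0.192 and -0.0955. Between genes, the closest pairs were FOS with JUNB (r = 0.877), FOSL1 with JUND (0.833) and FOSL2 with JUNB (0.785), and the farthest was FOSL2 with JUN (-0.446). These are descriptions over 15 arrays that share the treatment groups, not tests.

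**Figure D4:**
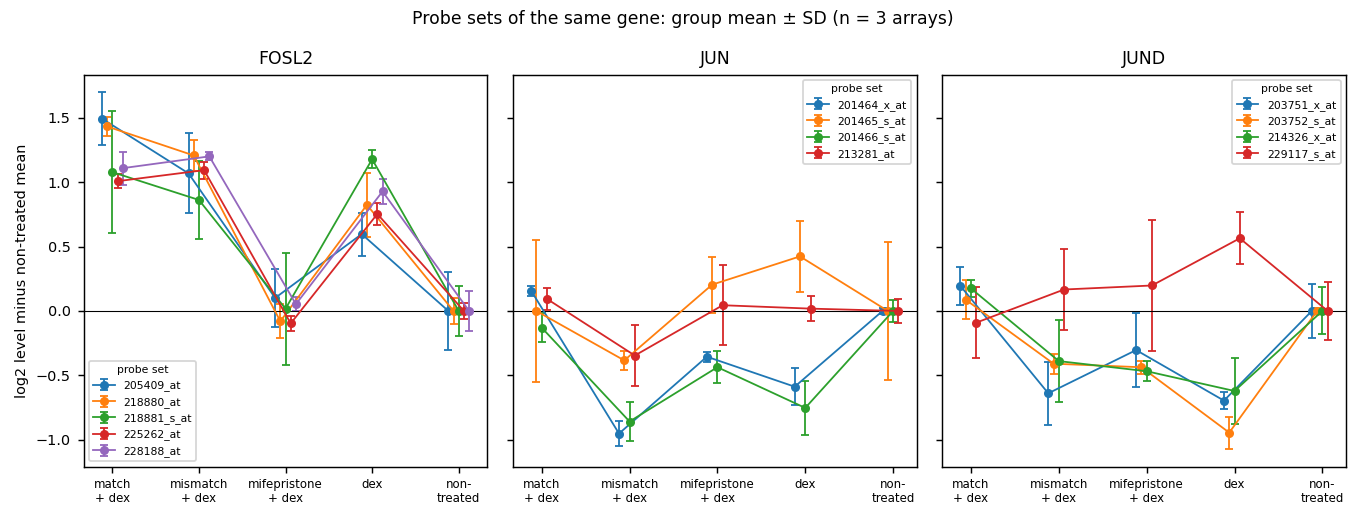
Log2 level of every tested FOSL2, JUN and JUND probe set minus its mean in non-treated cells, as mean ± SD of 3 arrays, in the match, mismatch, mifepristone, dexamethasone and non-treated groups from left to right. The 5 FOSL2 probe sets are all higher with dexamethasone than in non-treated cells. With both polyamides, 218881_s_at lies below its dexamethasone level and the other FOSL2 probe sets lie above theirs. Of JUN 2 and of JUND 3 run alike within their gene. The dim 201465_s_at and 229117_s_at do not follow them, and the dim 213281_at does so in part.

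The genes whose profile over the 15 arrays was most like each member, among 16357 others with 1 probe set per gene, gave a second description of these patterns. FOS was most like PNRC1 (r = 0.909), SAP30BP (0.893) and ITPRIP (0.888), and JUNB shared SAP30BP (0.927) and ITPRIP (0.945) and added RHOB (0.925). FOSL1 was most like IER5, an immediate early gene, at r = 0.990, with STAMBPL1 (0.984) and LRATD2 (0.981) next. FOSL2 went with TP53I3 (0.985) and GADD45A (0.982), both known p53 targets, and with PER2 of the circadian clock (0.978). JUN was most like KIAA1217 (0.919), NET1 (0.917) and PLK2 (0.900), and JUND like PLAUR (0.951), the urokinase receptor, IER2 (0.949) and NEIL3 (0.942).

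Other genes of the pathway were read from 5 lists, with 1 probe set per gene. Among the proteins that pair or compete with FOS and JUN, 15 of 18 genes were tested. With dexamethasone none was higher and 4 were lower, against 6.79% of all genes called, and the list's median change was -0.11 against -0.04 over all genes. The 4 were NFE2L2, the regulator of antioxidant genes (-0.69, SE 0.05, adjusted p = 1.33e-08), MAFG (-0.82), ATF3 (-0.62) and ATF4 (-0.25, adjusted p = 0.0459). The ATF4 call failed in 16 of 26 alternative settings. That of ATF3 failed on unscaled signals, with spike-in scaling, with the 2 groups fitted alone and without the second non-treated array. With mifepristone 4 were higher than with dexamethasone and none lower, against 5.29% of genes. They were NFE2L2 (0.64), ATF4 (0.34), ATF3 (0.58) and MAFG (0.52, adjusted p = 0.0428), of which MAFG failed in 13 of 26 settings. ATF3 failed with the 2 groups fitted alone and without any single dexamethasone array or mifepristone array 1 or 3. ATF4 failed with median centring, with trimmed-mean scaling and without a variance trend.

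The match polyamide raised 8 and lowered 3 of these 15 relative to dexamethasone, against 38.9% of all genes called. MAFF, a small MAF protein, rose 3.86-fold (1.95, adjusted p = 1.41e-12), ATF3, a stress-induced partner of JUN, rose 5.44-fold (2.44, adjusted p = 4.11e-11), ATF4 rose by 1.06 and NFE2L2 by 0.94. The mismatch polyamide raised 6 and lowered 2, against 29.6% of genes, with MAFF at 1.52, ATF3 at 1.08, CREM at 0.77 and ATF4 at 0.57. Between the polyamides 7 were higher and 2 lower in match, against 22.9% of genes. ATF3 differed by 1.36 (adjusted p = 1.12e-06), JDP2 by 0.66, NFE2L2 by 0.59 and ATF4 by 0.49, of which ATF3 alone passed on unscaled signals too.

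Of the kinases and transcription factors upstream of AP-1, 25 of 29 were tested. Dexamethasone raised 1 and lowered 2, which is 12% called against 6.79% of all genes. ELK3, a cofactor of SRF, rose by 0.36 (adjusted p = 0.0144), and MAP2K6, a MAP kinase kinase (-0.59, adjusted p = 0.000598), and MAP3K1, a kinase one tier above (-0.41, adjusted p = 0.0212), fell. ELK3 and MAP3K1 lost their calls on unscaled signals, with spike-in scaling (ELK3 with median centring too) and without some single arrays (ELK3 non-treated array 3 or dexamethasone array 1, MAP3K1 non-treated array 2 or 3 or dexamethasone array 1 or 2), and MAP2K6 on unscaled signals. MRTFA, another SRF cofactor, changed by 0.43 and did not pass (adjusted p = 0.0540). Mifepristone raised 2 and lowered 2 relative to dexamethasone, 16% against 5.29% of all genes. MAP2K6 was higher by 0.61 and RPS6KA3 by 0.33, while MRTFA (-0.54) and ELK3 (-0.36) were lower. The sign of ELK3 turned on unscaled signals (0.06) and with spike-in scaling (0.16), and MRTFA then changed by -0.11 and -0.02, neither past the test. All but MAP2K6 also lost their calls elsewhere, RPS6KA3 with median centring and without dexamethasone array 1 or 2 or mifepristone array 3, MRTFA without dexamethasone array 1 or mifepristone array 3, and ELK3 without dexamethasone array 1 or 3 or mifepristone array 3.

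Under the polyamides the share of upstream genes called was near that of all genes. Match lowered 7 and raised 4 of the 25 relative to dexamethasone, 44% against 38.9% of all genes, with MAP2K6 at -1.29, MRTFB at -1.18, MRTFA at -1.01 and RPS6KA3 at -0.99 (adjusted p from 2.05e-09 to 2.03e-06). Mismatch lowered 5 and raised 3, 32% against 29.6%, with MRTFB at -0.91, RPS6KA3 at -0.69 and ELK3 at -0.43 and with MRTFA at a mean signal of 73.1, against 162 with dexamethasone. The ELK3 call was lost on unscaled signals and with spike-in scaling. Match was lower than mismatch for 4 and higher for none, 16% against 22.9%, by -0.93 at MAP2K6, -0.69 at MAP3K7, -0.45 at MAP2K4 and -0.30 at RPS6KA3. Apart from MAP2K6 these differences did not pass with spike-in scaling, RPS6KA3 did not on unscaled signals either, and MAP2K4 failed without the first match array.

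The phosphatases, decay factors and ubiquitin ligases that switch AP-1 signalling off were tested for 19 of 20 genes. Dexamethasone raised 3 and lowered 4, which is 36.8% called against 6.79% of all genes. DUSP1, a phosphatase of the JNK and p38 kinases and a known glucocorticoid target, rose 2.63-fold (1.40, adjusted p = 6.57e-14), and ZFP36, which speeds the decay of AU-rich mRNAs, rose 4.47-fold (2.16, adjusted p = 4.95e-12). DUSP4 (-0.51, adjusted p = 0.000139) and DUSP8 (-0.82, adjusted p = 0.0199) fell. On unscaled signals the changes were about as large, -0.50 (adjusted p = 0.132) and -0.77 (adjusted p = 0.0616), but did not pass. DUSP8, at a mean signal of 10.9 with dexamethasone against 31.2 in non-treated cells, also lost its call without non-treated array 1 or 3 or dexamethasone array 3. Mifepristone lowered DUSP1 (-0.83) and ZFP36 (-1.45) and raised DUSP4 (0.51) and DUSP6 (0.51), 2 genes in each direction, 21.1% against 5.29% of all genes. With spike-in scaling the DUSP1 change was -0.44 and the ZFP36 change -0.90, both still past the test. DUSP6 lost its call without the first mifepristone array (adjusted p = 0.0807).

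Under the polyamides other phosphatases led the list. Match raised 8 and lowered 5 of the 19 relative to dexamethasone, 68.4% against 38.9% of all genes, with DUSP6, a phosphatase of the ERK kinases, 5.75-fold higher (2.52, adjusted p = 6.93e-13), DUSP4 3.70-fold (1.89) and DUSP5 2.61-fold (1.39), and with GSK3B, a kinase that marks JUN for degradation, 3.69-fold lower (-1.88, adjusted p = 1.27e-12). Mismatch raised 6 and lowered 8, 73.7% against 29.6%, with DUSP6 at 1.92, DUSP4 at 1.25, GSK3B at -1.16 and COP1, a ubiquitin ligase for JUN, at -1.20. Match exceeded mismatch for 5 and lay below it for 2, 36.8% against 22.9%. DUSP5 differed by 1.60 (adjusted p = 5.73e-11), DUSP4 by 0.63, DUSP6 by 0.60 and GSK3B by -0.72, and the DUSP4 and DUSP6 differences did not pass on unscaled signals.

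Among genes with known AP-1 sites or AP-1 dependence, 29 of 37 were tested, and dexamethasone raised 3 and lowered 8, while 18 did not pass, so that 37.9% were called against 6.79% of all genes. EREG, a ligand of the EGF receptor, fell 2.79-fold (-1.48, adjusted p = 1.76e-09), EDN1, which encodes endothelin, 2.28-fold (-1.19), PTGS2, the inducible cyclooxygenase, 2.56-fold (-1.35) and HMOX1, heme oxygenase, 2.90-fold (-1.54). Mifepristone raised 9 and lowered 2 of the 29 relative to dexamethasone, also 37.9%, against 5.29% of all genes, with HMOX1 at 1.38, PTGS2 at 1.24, EDN1 at 1.06 and EREG at 1.04. The EDN1 value was 1.59 with spike-in scaling.

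Both polyamides raised several of these targets and lowered others. Match raised 12 and lowered 9 of the 29, 72.4% against 38.9% of all genes, with EREG 4.61-fold above dexamethasone (2.20, adjusted p = 8.37e-13), PTGS2 at 1.78 and EDN1 at 1.41, and with CD44, an adhesion receptor, at -1.23. Mismatch raised 10 and lowered 9, 65.5% against 29.6%, with EDN1 at 0.99, PTGS2 at 0.95, CD44 at -0.66 and SPP1, osteopontin, at -0.49. CD44 and SPP1 did not pass for mismatch on unscaled signals (adjusted p = 0.0566 and 0.205), nor SPP1 with spike-in scaling. Match exceeded mismatch for 7 and lay below it for 3, 34.5% against 22.9%, by 1.47 at EREG (adjusted p = 3.43e-09), 1.11 at HMOX1, 0.83 at PTGS2 and -0.57 at CD44.

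Other immediate early genes were tested for 26 of 29, ATF3 and MAFF standing in this list as well as among the partners. Dexamethasone raised 9 and lowered 7 of them, which is 61.5% against 6.79% of all genes. IER3 fell 3.15-fold (-1.66, adjusted p = 3.18e-12) and IER2 2.83-fold (-1.50), while MCL1, an anti-apoptotic gene, rose 2.49-fold (1.32) and RHOB, a small GTPase, 2.31-fold (1.21). Mifepristone raised 7 and lowered 9 relative to dexamethasone, again 61.5%, against 5.29% of all genes, with IER3 at 1.24, IER2 at 1.07, RHOB at -1.21 and CCN2, a matricellular protein, at -1.60. With spike-in scaling RHOB changed by -0.67 and CCN2 by -1.04, still past the test.

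Match raised 14 and lowered 4 of the 26 relative to dexamethasone, 69.2% against 38.9% of all genes. NR4A2, an orphan nuclear receptor, had a mean signal of 985 with match against 17.1 with dexamethasone, a rise of 4.92 on the log2 scale (adjusted p = 1.96e-16), and IER3 rose by 2.53, IER2 by 1.74 and IER5 by 1.29. Mismatch raised 9 and lowered 6, 57.7% against 29.6%, with IER3 and NR4A2 both at 2.04, MAFF at 1.52 and IER5 at 0.70. Match exceeded mismatch for 17 of 26 genes and lay below it for 3, which is 76.9% called against 22.9% of all genes, with a median difference of 0.42 against -0.02 over all genes. NR4A2 differed by 2.88 (adjusted p = 1.01e-11), PPP1R15A by 1.32, PHLDA1 by 1.15 and IER2 by 1.09.

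**Figure D5:**
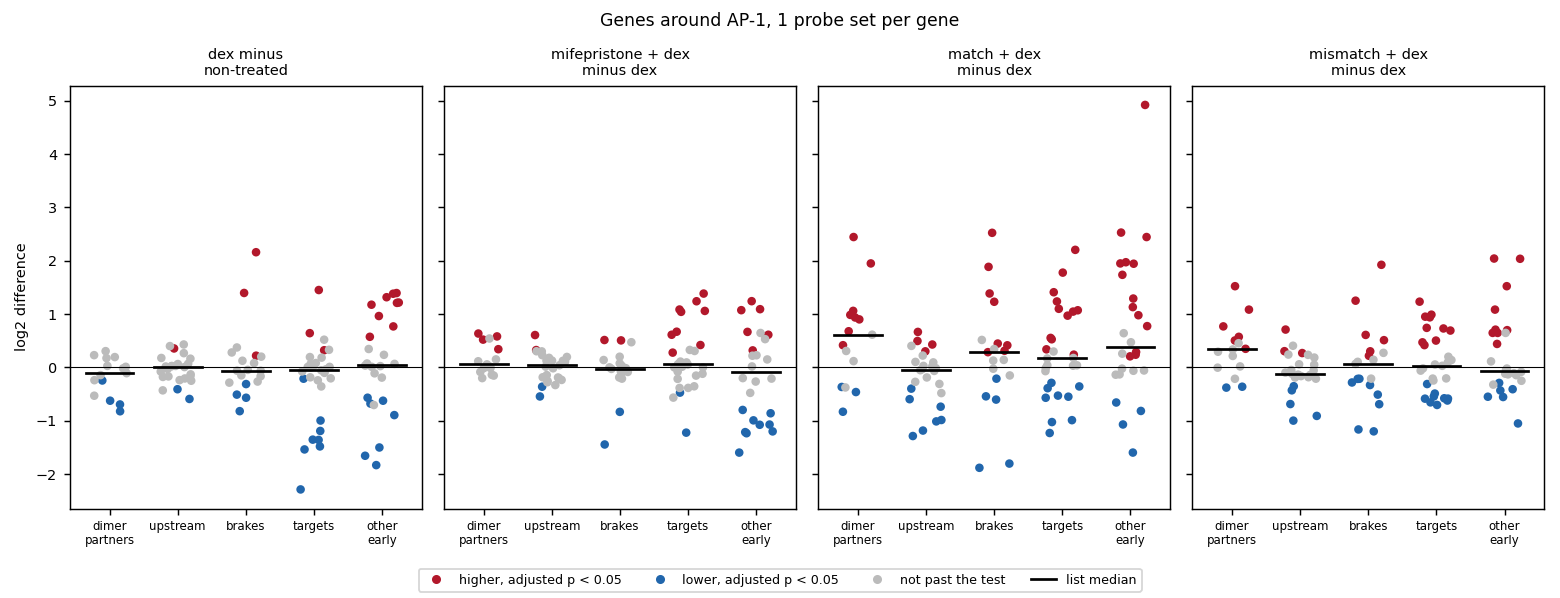
Change of each tested gene (dots) of the 5 pathway lists as a difference of log2(signal + 16), with the list's median as a black line, in dexamethasone against non-treated cells and in mifepristone, match and mismatch, each with dexamethasone, against dexamethasone alone. The spread of the dots is wider with the polyamides, and the partners' median is 0.61 with match and 0.34 with mismatch, against -0.11 with dexamethasone compared with non-treated cells.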

How the data were processed

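Biotin-labelled RNA of A549 cells was read on 15 Affymetrix arrays, per the labels, in 5 groups of 3. The authors deposited a linear MAS5 intensity for each probe set on each array, the tool being named in the submitters' processing notes. Neither its version nor its scaling target is stated in those sources. Arrays were put on 1 distribution by quantile normalization before taking log2(signal + 16). Of 54675 probe sets, the 62 Affymetrix controls were left out, and 39744 (72.7%) were tested, those with 3 or more of the 15 arrays over percentile 40 within the array. limma 3.58.1 (R 4.3.3) fitted 1 coefficient per group over all 15 arrays, eBayes used a variance trend (residual degrees of freedom 10, prior 9.36), and p-values of each of the 10 group pairs were adjusted over all tested probe sets by Benjamini and Hochberg's method. The number of arrays limits the precision.

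Probe sets were named from a platform annotation, which gave 1 gene to 41097, several to 1801 and none to 11777. The members, lists and named-gene rule were chosen with earlier results of these data known. All probe sets of the members were described. From each list, up to 4 genes with the smallest adjusted p in each of the 5 main comparisons were named, by 1 probe set per gene (those with its symbol alone, not ending in _x_at first, then the highest mean), with the 3 genes of highest Pearson r for each member, and FKBP5, TSC22D3 and NR3C1 as controls. On simulated data the fit was checked for recovery of known changes. Alternatives were 4 scalings, other pseudocounts, filters and variance models, the 2 groups alone, a replicate block and leaving out each array. Samples with the same replicate number did not deviate together (r = -0.0836 to 0.116 over 30 pairs).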

Additional observations from a re-analysis of the deposited data

How the results depend on the processing

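Of the member results under the alternatives, 3996 stayed on the same side of the threshold, 109 lost and 22 gained a call. A further 3, called in the main fit alone, turned their sign. JUND 203752_s_at did so in mifepristone against non-treated cells, at 0.0096 on the signals as deposited and 8.02e-06 with spike-in scaling. JUNB did so in mismatch against mifepristone, at -0.12 with spike-in scaling. Sign changes of results called in neither fit were counted among the 3996. JUN 201465_s_at in match against non-treated cells, for example, changed sign in 8 of 25 settings. ELK3 turned in mifepristone against dexamethasone, to 0.061 on the signals as deposited and 0.16 with spike-in scaling. Of the values of named list and control genes, 2840 stayed on the same side of the threshold, 114 lost and 7 gained a call. With the signals as deposited, 814 probe sets were called in dexamethasone against non-treated cells, 8142 with mifepristone and 7978 with match. In match against mismatch 3094 were called, 4 of them member probe sets. With spike-in scaling the counts were 825, 15178 with mifepristone, 4971 with mismatch and 2808 in match against mismatch, and 4 member probe sets were called with mismatch. The median of all probe sets then moved by 0.42 with mifepristone, 0.24 with match and 0.14 in match against mismatch.

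The split of higher and lower calls moved too. With match it was 6312 against 5940, but 3775 against 7229 with median centring and 8315 against 2699 with spike-in scaling. With mifepristone it was 639 against 772, but 7910 against 232 as deposited and 14961 against 217 with spike-in scaling. In match against mismatch it was 2969 against 3728, but 1278 against 5236 with median centring, 556 against 2538 as deposited and 2009 against 799 with spike-in scaling.

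Leaving out each array in turn gave 1430 to 2032 probe sets and 10 to 12 member probe sets in dexamethasone against non-treated cells. In the same order, the counts were 1003 to 1483 and 8 to 8 with mifepristone, and 10805 to 12318 and 8 to 10 with match. They were 7511 to 9351 and 5 to 9 with mismatch, and 5377 to 6740 and 7 to 8 in match against mismatch. Samples with the same replicate number were not seen to deviate together, which does not show that they were unpaired. With the replicate block 8 member probe sets were called with mismatch, where JUN 201465_s_at was lost (adjusted p = 0.0534). The causes of these shifts were not tested.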
